A study of Mus musculus with 20 samples.

Results

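The livers of mice given anti-CD40 were compared with those of control mice, with and without antibiotics (ABX), and 6 genes were followed across the 4 groups: Rps6ka2, Kcna2, Slc16a12, Prr33, Atl1 and Zbed3. They are 6 of 2200 mouse genes that could be tested, out of 4217 genes with counts. They were chosen on these same libraries because their response to anti-CD40 differed between mice with and without ABX, so the values of the 6 are a description. Where one of the 6 is said to be called, to rise or to fall, that gives its side of the threshold in the fit to all genes and is no independent evidence. The genes Rps6ka2, Prr33 and Atl1 had a lower fitted anti-CD40 response in ABX mice than in mice without ABX, and Kcna2, Slc16a12 and Zbed3 had a higher one.

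The series held 20 liver RNA libraries, each from an individual mouse, in 4 groups of 5. The groups were anti-CD40 with ABX (mice 11 to 15), anti-CD40 without ABX (mice 16 to 20), control with ABX (mice 1 to 5) and control without ABX (mice 6 to 10). Strain, genotype, age, the antibody clone and dose, what the control mice received, the antibiotics used and when the livers were taken are all unstated in the descriptions at hand. RNA was taken from whole liver pieces, so fewer cells of a type and less RNA per cell cannot be told apart for any gene below.

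CD40 is a receptor of the tumour necrosis factor receptor family on antigen-presenting cells, endothelium and other cells. Antibodies that activate it are known for causing inflammation of the mouse liver, and the liver receives bacterial products from the gut through the portal vein, which antibiotics reduce. The 6 genes have no single known pathway in common. Rps6ka2 encodes RSK3, one of the ribosomal S6 kinases that ERK activates. Kcna2 encodes the voltage-gated potassium channel subunit Kv1.2, best known from axons. Slc16a12 encodes a monocarboxylate transporter family member whose human form carries creatine. Atl1 encodes atlastin-1, a GTPase that fuses tubules of the endoplasmic reticulum (ER), mutated in a human hereditary spastic paraplegia. Zbed3 encodes a BED-type zinc finger protein that binds axin in the Wnt pathway in mouse. Prr33 is a locus named for a proline-rich protein that the GENCODE M21 annotation used here lists as a non-coding RNA.

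What was counted for each gene was a small piece of it. The deposited tables give counts for intervals taken from a human annotation, over reads aligned to mouse mm10, and each interval was assigned here to a mouse gene by position. The sequences below show counted bases of 5 of the genes, and for Slc16a12 and Zbed3 only are they all that was counted. They are the sense strand, 5′ to 3′, of GENCODE M21 transcripts on GRCm38 (mm10), with counted bases in capitals and neighbouring exon bases in lower case.
Rps6ka2, chr17:7292746-7292907, + strand, coding exon 17 of 21: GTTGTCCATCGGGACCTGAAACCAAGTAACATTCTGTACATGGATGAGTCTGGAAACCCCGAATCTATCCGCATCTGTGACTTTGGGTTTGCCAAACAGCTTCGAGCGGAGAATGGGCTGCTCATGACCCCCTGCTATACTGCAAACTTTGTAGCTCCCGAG
Slc16a12, chr19:34677284-34677427, - strand, coding exon 4 of 7: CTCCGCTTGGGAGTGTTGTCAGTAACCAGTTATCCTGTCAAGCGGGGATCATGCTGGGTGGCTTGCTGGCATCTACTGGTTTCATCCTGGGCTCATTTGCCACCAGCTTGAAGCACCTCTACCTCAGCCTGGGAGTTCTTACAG
Prr33, chr7:142492112-142492245, - strand, non-coding exon 3 of 3: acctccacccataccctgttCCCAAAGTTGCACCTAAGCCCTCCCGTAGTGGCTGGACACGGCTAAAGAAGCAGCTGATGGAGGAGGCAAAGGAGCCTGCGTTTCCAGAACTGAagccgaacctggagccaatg
Atl1, chr12:69955343-69955387, + strand, coding exon 12 of 15: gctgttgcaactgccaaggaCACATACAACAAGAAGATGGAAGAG
Zbed3, chr13:95336086-95336221, + strand, coding exon 2 of 2: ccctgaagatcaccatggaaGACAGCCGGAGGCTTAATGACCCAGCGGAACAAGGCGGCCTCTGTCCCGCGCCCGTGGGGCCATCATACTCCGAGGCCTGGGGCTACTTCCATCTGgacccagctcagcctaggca
The Slc16a12 and Zbed3 stretches are all that was counted of those genes, 144 bp (3.45% of the gene's exon bases) and 96 bp (4.30%). The Rps6ka2 stretch is 1 of 8 intervals with 2098 bp in all, 34 of which 2 intervals shared. For Kcna2 2 intervals with 2806 bp (23.57%) were counted. For Prr33 392 bp (16.70%) and for Atl1 764 bp (8.33%) were counted. The stretches shown hold 94 of these bp for Prr33 and 25 for Atl1. A further stretch of Atl1, not shown, held 653 bp. Since each gene was counted over different bases, the levels below compare groups within a gene and never 1 gene with another.

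Library depth was 5053014 to 5874749 counts in anti-CD40 ABX mice, 5391794 to 6211642 in anti-CD40 mice without ABX, 6201453 to 7282519 in control ABX mice and 6196703 to 7618736 in control mice without ABX. Intervals assigned to a single gene held 46.35% of all counts. Alb, the main secreted protein of hepatocytes, was present throughout, at 81100 ± 11100 TMM-scaled CPM (counts per 1e+06 counts) in anti-CD40 ABX mice, 60900 ± 9650 in anti-CD40 mice without ABX, 206000 ± 34500 in control ABX mice and 160000 ± 9360 in control mice without ABX (SD, n = 5 each). Mitochondrial counts took 20.9 to 25.8% in anti-CD40 ABX mice, 23.7 to 25.7% in anti-CD40 mice without ABX, 29.5 to 35.1% in control ABX mice and 22.4 to 31.1% in control mice without ABX. Control mouse 8 stood apart, with 93.1 CPM of the macrophage receptor Marco against 9.5 to 16.7 CPM in the other control mice without ABX. In both anti-CD40 groups the endothelial gene Pecam1 split the mice, with 7.41 and 7.7 CPM in mice 15 and 14 and 15.3 and 15.4 CPM in mice 19 and 20, against 35.2 to 76.9 CPM in the other 6. The matrix gene Col3a1 was lowest in the same mice of each anti-CD40 group. Mice 14 and 15 had 6.31 and 6.02 CPM, mouse 13 had 11 CPM, and mice 11 and 12 had 49 and 49.8 CPM. Mice 19 and 20 had 17 and 26 CPM, and mice 16 to 18 had 76.4 to 125 CPM.

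A gene was called where edgeR's quasi-likelihood test gave an adjusted p under 0.05 over all 2200 genes. The difference of effects is the log2 change with anti-CD40 in ABX mice minus that in mice without ABX. All 6 genes were called in it, 3 higher and 3 lower, beside 7.55% of all tested genes (4.36% higher and 3.18% lower), and since the choice of the 6 used this comparison nothing is read from that count. Among called genes ordered by size, Prr33, Rps6ka2 and Atl1 stood at places 1, 2 and 4 of those with a lower response in ABX mice, and the next gene after Atl1 was Per1 with -2.28. Kcna2, Slc16a12 and Zbed3 stood at places 5, 6 and 8 of those with a higher response, and the next after Zbed3 was Frat1 with 1.25.

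The 6 genes reached their difference in different ways. In ABX mice anti-CD40 moved 4 of the 6 past the threshold, Kcna2, Prr33 and Zbed3 higher and Rps6ka2 lower, beside 51.5% of all tested genes (26.6% higher and 24.9% lower). In mice without ABX 4 of the 6 passed, Rps6ka2, Prr33 and Atl1 higher and Slc16a12 lower, beside 60.6% of all genes (31.8% higher and 28.8% lower). ABX within anti-CD40 mice moved 3 of the 6, Slc16a12 and Zbed3 higher and Rps6ka2 lower, beside 15.9% of all genes (8.68% higher and 7.23% lower). ABX within control mice moved 2 of the 6, Prr33 higher and Kcna2 lower, beside 6.68% of all genes (3.45% higher and 3.23% lower). The median log2 change of the 6 was 0.26, 0.79, -0.07 and 0.09 in these 4 comparisons in that order, against 0.02, 0.03, -0.01 and -0.01 over all tested genes. The 5 comparisons share samples, so they are not independent of each other.

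**Figure D1:**
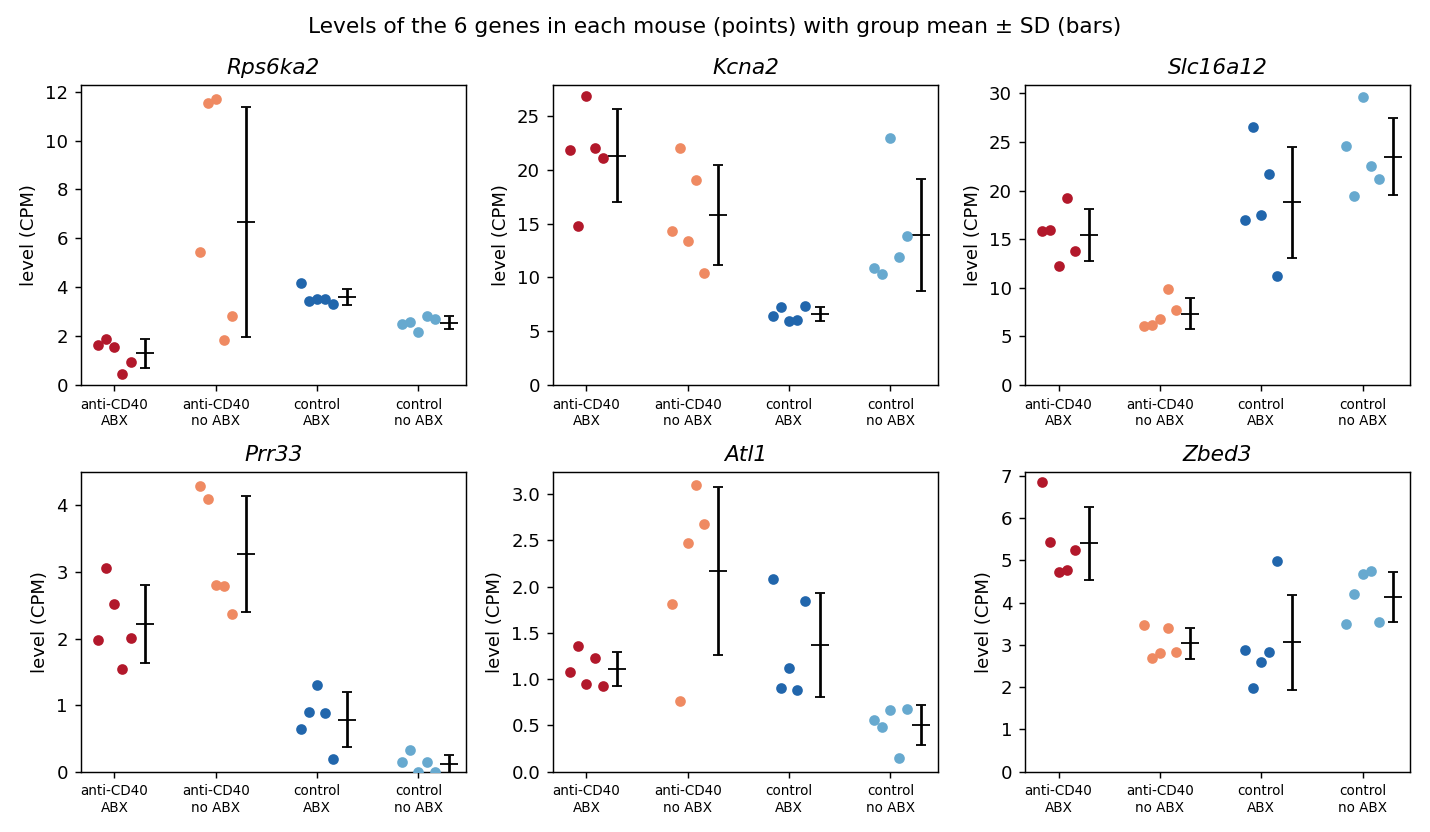
Level of each gene in CPM (vertical axis, linear from 0) in the 4 groups. Each point is 1 mouse and each black bar the group mean ± SD (n = 5). Rps6ka2 spreads from 1.86 to 11.7 CPM among anti-CD40 mice without ABX, while Prr33 is at or under 0.323 CPM in all control mice without ABX.

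Rps6ka2 lay lower with anti-CD40 in ABX mice and higher with it in mice without ABX, the one gene of the 6 past the threshold in both directions, though with the plate column as a term, at -1.67 ± 0.77 and 0.98 ± 0.75, it passed in neither. It stood at 1.62, 1.87, 1.57, 0.462 and 0.926 CPM in anti-CD40 ABX mice 11 to 15, and at 5.44, 11.5, 11.7, 1.86 and 2.84 CPM in anti-CD40 mice 16 to 20 without ABX. Control ABX mice 1 to 5 had 4.17, 3.43, 3.53, 3.54 and 3.32 CPM, and control mice 6 to 10 without ABX had 2.52, 2.59, 2.17, 2.82 and 2.7 CPM. The anti-CD40 ABX mice all lay below the control ABX mice, whereas the anti-CD40 mice without ABX ran from below to well above their controls and overlapped them, and 1 of them, mouse 19, fell just under the highest anti-CD40 ABX mouse. The control groups did not overlap either, with ABX mice higher. With ABX the fitted log2 change with anti-CD40 was -1.48 ± 0.45 (SE), and without ABX it was 1.38 ± 0.38, a difference of -2.87 ± 0.58. These SEs rest on a spread shared by all 4 groups. The SD was 4.70 CPM in anti-CD40 mice without ABX and 0.25 CPM in control mice without ABX. Between anti-CD40 mice the change with ABX was -2.38 ± 0.42, and between control mice it was 0.49 ± 0.40, which was not called. The counts behind these levels were low, 39 over the 5 anti-CD40 ABX mice, 224 over the 5 anti-CD40 mice without ABX, 102 over the control ABX mice and 82 over the control mice without ABX.

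The 8 counted intervals of Rps6ka2 are parts of the sum on which the gene was chosen, so their values are a description. All 8 intervals had their highest mean level in anti-CD40 mice without ABX and their lowest, or tied lowest, in anti-CD40 ABX mice. Several rested on few counts. Interval 1 gave 6 counts in anti-CD40 mice without ABX and 5 in control mice without ABX. Interval 5 gave 0 in both ABX groups. Mice 17 and 18 held 90 and 71 of the 224 counts in anti-CD40 mice without ABX. The interval with the most counts gave 16 in anti-CD40 ABX mice, 83 in anti-CD40 mice without ABX, 39 in control ABX mice and 27 in control mice without ABX. The interval of exon 17 printed above gave 9 counts in anti-CD40 ABX mice, 44 in anti-CD40 mice without ABX, 17 in control ABX mice and 14 in control mice without ABX. Adjacent intervals share transcripts and mice, so they are not replicates.

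**Figure D2:**
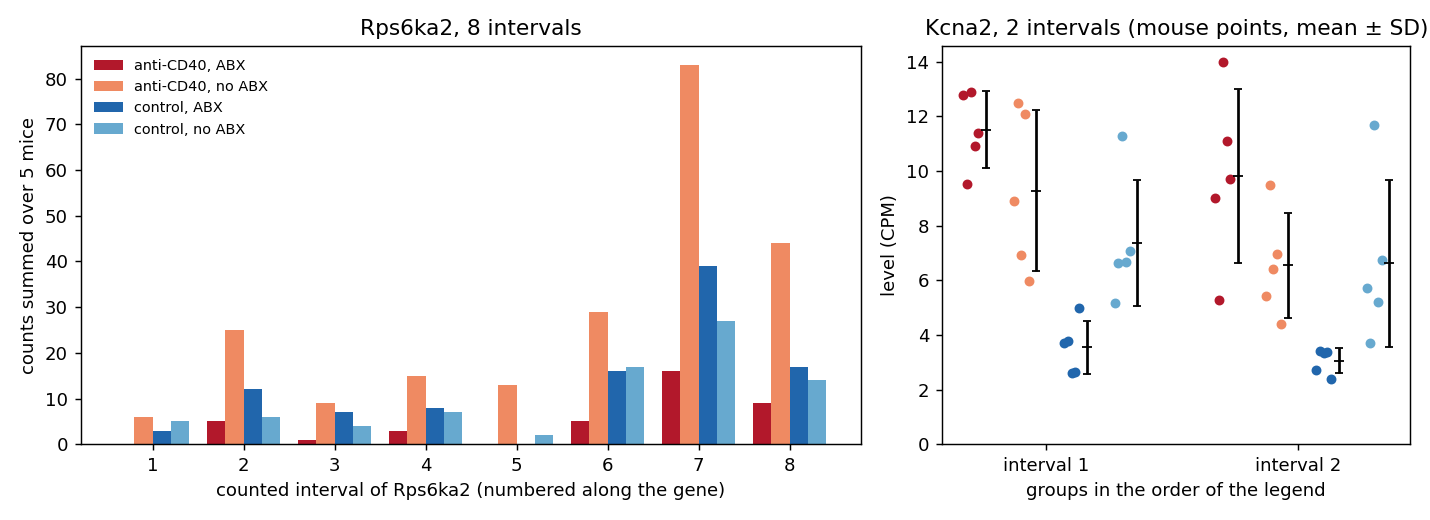
Left, counts of Rps6ka2 summed over the 5 mice of each group (vertical axis) in its 8 counted intervals (horizontal axis). Right, level of Kcna2 in CPM in its 2 intervals, with 1 point per mouse and mean ± SD (n = 5), groups in the order of the legend. Anti-CD40 mice without ABX give the tallest bar in every Rps6ka2 interval, and control ABX mice the lowest mean in both Kcna2 intervals.

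Within each anti-CD40 group the mice lowest in Rps6ka2 were also the mice lowest in Pecam1 and in the matrix gene Col3a1. Mice 14 and 15 had 0.462 and 0.926 CPM of Rps6ka2, and the other 3 anti-CD40 ABX mice had 1.57 to 1.87 CPM. Mice 19 and 20 had 1.86 and 2.84 CPM, and the other 3 anti-CD40 mice without ABX had 5.44 to 11.7 CPM. Leaving out these 4 mice, a choice made after seeing the data, left a difference of effects of -2.98 ± 0.39, with changes of -1.11 ± 0.30 in ABX mice and 1.88 ± 0.24 in mice without ABX. Pecam1 itself gave a difference of -0.34 ± 0.74 (adjusted p = 0.82). Of 12 endothelial markers listed 4 were measured, Pecam1, Stab1, Stab2 and Gata4. None was called in the difference by edgeR or DESeq2, beside 7.55% of all tested genes by edgeR. At an unadjusted p under 0.05 were 2 of the 4, Gata4 and Stab1, beside 527 of all 2200 tested genes. Their differences had opposite signs, 0.63 ± 0.25 for Gata4 and -0.81 ± 0.36 for Stab1. With ABX in anti-CD40 mice edgeR called 1 of the 4, Stab1, lower by 0.89 ± 0.26 (adjusted p = 0.025), beside 15.9% of all tested genes. Stab1 averaged 6.91 CPM in anti-CD40 ABX mice and 12.7 CPM in anti-CD40 mice without ABX. The summed level of the 4 markers was 27.8 to 89.0 CPM in anti-CD40 ABX mice, 34.7 to 116 CPM in anti-CD40 mice without ABX, 107 to 126 CPM in control ABX mice and 116 to 168 CPM in control mice without ABX. The scavenger receptor Stab2 was at 3.53 ± 2.86 CPM in anti-CD40 ABX mice, 4.5 ± 1.94 in anti-CD40 mice without ABX, 49.1 ± 5.54 in control ABX mice and 46.0 ± 5.73 in control mice without ABX (SD, n = 5 each). The part of the cells of these markers, or of Col3a1, in the Rps6ka2 values was not tested.

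**Figure D3:**
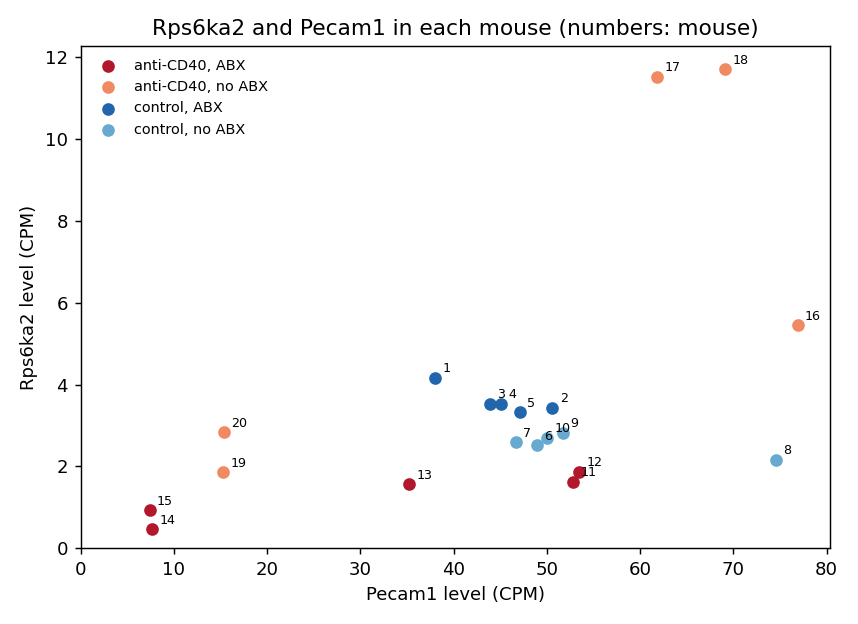
Rps6ka2 (vertical axis) against Pecam1 (horizontal axis), both in CPM, for all 20 mice, each labelled by its number and coloured by group. Mice 14, 15, 19 and 20 lie at 7.41 to 15.4 CPM of Pecam1, and anti-CD40 mice without ABX lie above anti-CD40 ABX mice both among these 4 and among the other 6.

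Kcna2 was lowest in control ABX mice, and it was called higher with anti-CD40 in ABX mice but not in mice without ABX. It stood at 21.8, 14.8, 26.9, 22 and 21.1 CPM in anti-CD40 ABX mice 11 to 15, and at 14.3, 22, 13.4, 19 and 10.4 CPM in anti-CD40 mice 16 to 20 without ABX. Control ABX mice 1 to 5 had 6.42, 7.23, 5.95, 6.01 and 7.38 CPM, and control mice 6 to 10 without ABX had 10.9, 10.3, 23, 11.9 and 13.8 CPM. Control ABX mice lay below every mouse of the other 3 groups, which overlapped each other. The fitted change with anti-CD40 was 1.69 ± 0.23 with ABX and 0.19 ± 0.21 without, a difference of 1.5 ± 0.31. The change with ABX was 0.42 ± 0.21 between anti-CD40 mice, not called, and -1.08 ± 0.23 between control mice.

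One control mouse weighed on the Kcna2 values. Mouse 8, which also stood apart in Marco, had 23 CPM, against 10.3 to 13.8 CPM in the other 4 of its group. Without mouse 8 the change with anti-CD40 in mice without ABX was 0.44 ± 0.18 and was then called, and the difference of effects was 1.26. The 2 counted intervals, 1 wholly of untranslated exon and 1 with coding bases, gave differences of 1.31 ± 0.32 and 1.65 ± 0.39. Their mean levels were 11.5 and 9.82 CPM in anti-CD40 ABX mice, 9.29 and 6.54 CPM in anti-CD40 mice without ABX, 3.54 and 3.05 CPM in control ABX mice and 7.38 and 6.61 CPM in control mice without ABX.

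Slc16a12 fell with anti-CD40 in mice without ABX. It stood at 15.9, 16, 12.3, 19.3 and 13.7 CPM in anti-CD40 ABX mice 11 to 15, and at 6.1, 6.15, 6.76, 9.9 and 7.72 CPM in anti-CD40 mice 16 to 20 without ABX. Control ABX mice 1 to 5 had 17, 26.6, 17.5, 21.7 and 11.3 CPM, and control mice 6 to 10 without ABX had 24.6, 19.4, 29.7, 22.6 and 21.2 CPM. The anti-CD40 mice without ABX lay below every mouse of the other 3 groups, while the 2 ABX groups overlapped. The fitted change with anti-CD40 was -0.29 ± 0.18 with ABX and -1.68 ± 0.19 without, a difference of 1.39 ± 0.26. The change with ABX was 1.07 ± 0.19 between anti-CD40 mice and -0.32 ± 0.18, not called, between control mice. In ABX mice the change with anti-CD40 was called, among the settings run, only where control mouse 5 was left out, at -0.42 ± 0.17, and it was 0.06 ± 0.18 where libraries were scaled to their totals.

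Prr33 had at most 2 counts in any control mouse without ABX and rose with anti-CD40 in both antibiotic settings. It stood at 1.98, 3.06, 2.51, 1.54 and 2.01 CPM in anti-CD40 ABX mice 11 to 15, and at 4.29, 4.1, 2.8, 2.78 and 2.36 CPM in anti-CD40 mice 16 to 20 without ABX. Control ABX mice 1 to 5 had 0.642, 0.903, 1.3, 0.884 and 0.185 CPM, and control mice 6 to 10 without ABX had 0.14, 0.323, 0, 0.148 and 0 CPM. Each anti-CD40 group lay wholly above its control group, and the 2 anti-CD40 groups overlapped, as did the 2 control groups. The fitted change with anti-CD40 was 1.48 ± 0.39 with ABX and 4.51 ± 0.50 without, a difference of -3.03 ± 0.70. Between anti-CD40 mice the change with ABX was -0.56 ± 0.32, not called, and between control mice it was 2.47 ± 0.62, which was no longer called without mouse 3.

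The size of the Prr33 difference rested on few counts in control mice without ABX. Over the 5 mice of a group there were 68 counts in anti-CD40 ABX mice, 108 in anti-CD40 mice without ABX, 22 in control ABX mice and 4 in control mice without ABX, with 0 in mice 8 and 10. The ratio of levels, anti-CD40 over control, was 2.84 with ABX (95% exact interval 1.73 to 4.82) and 26.4 without (10 to 98.6). The ratio of control ABX mice to control mice without ABX was 6.24 (2.12 to 24.9). These intervals cover counting error only, and the fitted log2 changes of so low a gene depend on the prior count used in the fit.

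Atl1 rose with anti-CD40 in mice without ABX, and it had its lowest values in control mice without ABX. It stood at 1.08, 1.36, 0.943, 1.23 and 0.926 CPM in anti-CD40 ABX mice 11 to 15, and at 1.81, 0.768, 2.47, 3.09 and 2.68 CPM in anti-CD40 mice 16 to 20 without ABX. Control ABX mice 1 to 5 had 2.09, 0.903, 1.12, 0.884 and 1.84 CPM, and control mice 6 to 10 without ABX had 0.559, 0.485, 0.666, 0.148 and 0.674 CPM. The control mice without ABX lay below every mouse of the other 3 groups, and among anti-CD40 mice without ABX only mouse 17 lay below all mice of both ABX groups. The fitted change with anti-CD40 was -0.31 ± 0.40 with ABX and 2.05 ± 0.42 without, a difference of -2.36 ± 0.58. The change with ABX was -0.94 ± 0.37 between anti-CD40 mice and 1.42 ± 0.45 between control mice, neither of them called with all 20 mice and both called without mouse 17, at -1.16 and 1.43. The counts were 34 in anti-CD40 ABX mice, 69 in anti-CD40 mice without ABX, 39 in control ABX mice and 16 in control mice without ABX, all from 1 interval in which most bases belong to non-coding exons. Without mice 14, 15, 19 and 20 the difference was -1.96 ± 0.70 and was no longer called.

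Zbed3 was highest in anti-CD40 ABX mice. It stood at 6.85, 5.44, 4.71, 4.78 and 5.25 CPM in anti-CD40 ABX mice 11 to 15, and at 3.46, 2.69, 2.8, 3.4 and 2.84 CPM in anti-CD40 mice 16 to 20 without ABX. Control ABX mice 1 to 5 had 2.89, 1.99, 2.6, 2.83 and 4.98 CPM, and control mice 6 to 10 without ABX had 3.49, 4.2, 4.67, 4.75 and 3.54 CPM. The 2 anti-CD40 groups did not overlap, the anti-CD40 mice without ABX lay just below their controls, and control ABX mouse 5 and control mouse 9 without ABX reached into the range of the anti-CD40 ABX mice. The fitted change with anti-CD40 was 0.82 ± 0.22 with ABX and -0.44 ± 0.22, not called, without, a difference of 1.26 ± 0.31. The change with ABX was 0.83 ± 0.22 between anti-CD40 mice and -0.43 ± 0.22, not called, between control mice. Without mice 14, 15, 19 and 20 the difference was 1.35 ± 0.39 and was no longer called.

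**Figure D4:**
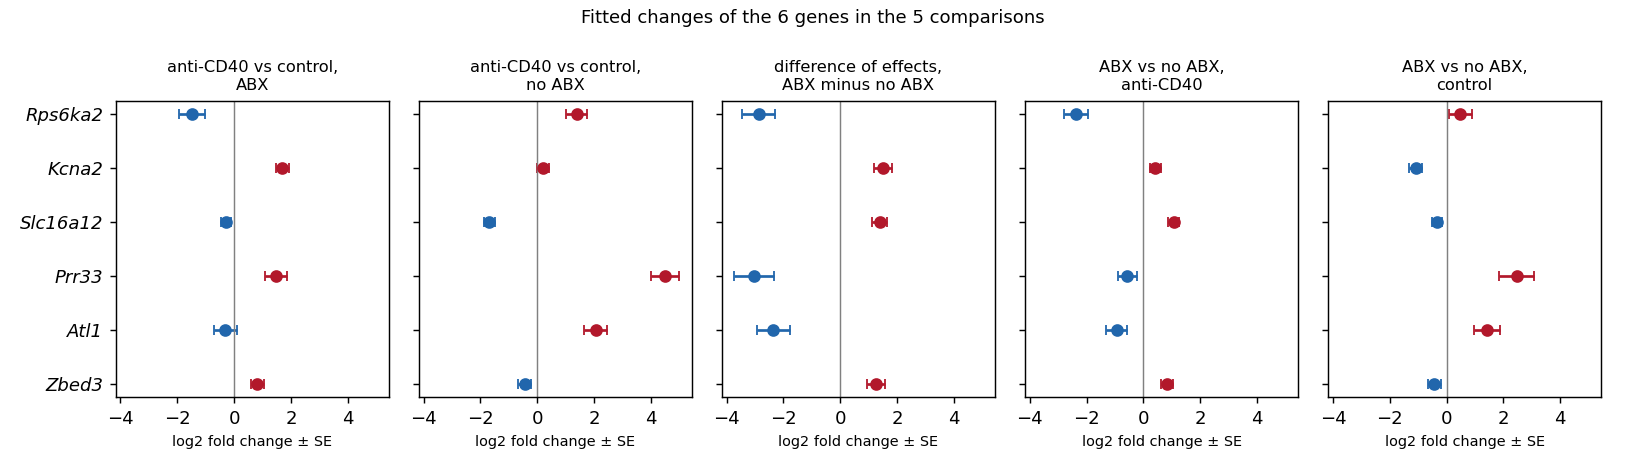
Fitted log2 fold change ± SE (horizontal axis) of the 6 genes (rows) in the 5 comparisons (panels), red above 0 and blue below. In the middle panel Rps6ka2, Prr33 and Atl1 lie at -2.87, -3.03 and -2.36 and Kcna2, Slc16a12 and Zbed3 at 1.5, 1.39 and 1.26.

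The order of the group means also differed between the genes. For Rps6ka2 and Atl1 the order was anti-CD40 without ABX, control ABX and then the other groups, with means of 6.67 ± 4.70 and 3.6 ± 0.33 CPM for Rps6ka2 and 2.17 ± 0.91 and 1.37 ± 0.56 CPM for Atl1 (SD, n = 5 each). For Kcna2 and Zbed3 anti-CD40 ABX mice led, at 21.3 ± 4.31 and 5.41 ± 0.86 CPM. For Slc16a12 anti-CD40 mice without ABX came last at 7.33 ± 1.58 CPM and control mice without ABX led at 23.5 ± 3.94 CPM. For Prr33 the 2 anti-CD40 groups led, at 2.22 ± 0.58 CPM with ABX and 3.27 ± 0.87 CPM without. The biological coefficient of variation within groups was 38.4% for Rps6ka2, 26.4% for Atl1, 22.2% for Kcna2, 20.7% for Prr33, 18.7% for Slc16a12 and 13.8% for Zbed3, against 16.7% as the common value of all tested genes.

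Other genes of the pathways of the 6 were measured only in part, and 3 of them were called in the difference of effects, 1 of 8 in the first list below and 2 of 7 in the second, beside 7.55% of all tested genes. Of 36 listed genes of the RSK and ERK cascade 8 were measured besides Rps6ka2, and only Dusp5, a phosphatase of ERK, was called, lower. Dusp5 rose with anti-CD40 by 1.85 ± 0.30 on the log2 scale with ABX (adjusted p = 1.4e-05) and by 3.46 ± 0.29 without (adjusted p = 3.7e-10), a difference of -1.61 ± 0.44 (adjusted p = 0.031), a call that was lost in 8 of 20 fits with 1 mouse left out and under scaling to library totals (adjusted p = 0.057). Rps6ka1, the paralogous kinase RSK1, gave a difference of 0.08 ± 0.29 (adjusted p = 0.90), Sos1 one of 0.48 ± 0.21 (adjusted p = 0.15) and Dusp4 one of -1.25 ± 0.53 (adjusted p = 0.15). The median difference of the 8 was -0.23, against -0.01 over all tested genes.

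For Atl1, 7 of 26 listed genes for proteins that shape the ER were measured and 2 were called in the difference, both higher and so opposite in sign to Atl1. Atl3, another atlastin, changed with anti-CD40 by -0.05 ± 0.08 with ABX and -0.51 ± 0.08 without (adjusted p = 3.8e-06), a difference of 0.46 ± 0.11 (adjusted p = 0.013), which was no longer called without mice 14, 15, 19 and 20 (adjusted p = 0.074). Spast, the microtubule-severing ATPase spastin, changed by 0.15 ± 0.10 with ABX and -0.42 ± 0.10 without (adjusted p = 0.00061), a difference of 0.57 ± 0.14 (adjusted p = 0.015). The remaining atlastin, Atl2, gave a difference of -0.14 ± 0.17 (adjusted p = 0.67), and Reep6, a membrane-curving protein, one of 0.39 ± 0.14 (adjusted p = 0.079). The median difference of the 7 was 0.33.

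No other listed voltage-gated potassium channel gene, of 38, could be measured beside Kcna2. Among the listed monocarboxylate transporter and creatine genes, Ckb fell with anti-CD40 in both settings. Ckb, a creatine kinase, changed by -1.52 ± 0.30 with ABX (adjusted p = 0.00015) and by -1.36 ± 0.30 without (adjusted p = 0.00041). Its difference of effects, -0.16 ± 0.42, was called by neither edgeR (adjusted p = 0.85, not under 0.05 unadjusted) nor DESeq2.

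Around Zbed3, 5 of 34 listed ZBED family, axin and Wnt genes were measured. None was called in the difference by edgeR or DESeq2, beside 7.55% of all tested genes by edgeR. At an unadjusted p under 0.05 were 2 of the 5, Rnf43 and Lgr4, beside 527 of all 2200 tested genes. The largest value was that of Rnf43, a ubiquitin ligase that restrains Wnt receptors, at 1.29 ± 0.48 (adjusted p = 0.099), with changes of -0.21 ± 0.34 in ABX mice and -1.49 ± 0.34 in mice without ABX (adjusted p = 0.00052). Lgr4, a receptor that Rnf43 acts with, gave 0.31 ± 0.15 (adjusted p = 0.20). The transcription factor Tcf7l2 was called with ABX in both backgrounds, by 0.47 ± 0.13 in anti-CD40 mice (adjusted p = 0.019) and 0.58 ± 0.13 in control mice (adjusted p = 0.010), and gave a difference of -0.11 ± 0.19 (adjusted p = 0.79).

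The genes most like each of the 6 were those with the smallest root mean square difference in centred log2 CPM over the 20 libraries, among 2183 genes. They were chosen for that likeness on the same libraries, so their values are also a description. For Rps6ka2 they were Htra1, a secreted serine protease, at 0.52 and Ifi207 at 0.62 (median of all genes 0.99), with differences of effects of -1.75 and -0.95. For Kcna2 they were Plec, encoding the cytoskeletal linker plectin, at 0.33 and the oestrogen receptor gene Esr1 at 0.37 (median 0.77), with differences of 0.50 and 0.78. For Slc16a12 they were Shroom2 at 0.30 and the receptor phosphatase gene Ptprd at 0.32 (median 0.78), with differences of 0.99 and 0.77.

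For Prr33 they were Nfkbia, the inhibitor of NF-kB, at 0.49 and the interleukin receptor chain Il2rb at 0.55 (median 1.28), with differences of -0.81 and -0.37. Nfkbia averaged 297 CPM in anti-CD40 ABX mice, 278 CPM in anti-CD40 mice without ABX, 94.7 CPM in control ABX mice and 50.6 CPM in control mice without ABX. For Atl1 they were Nostrin, a trafficking protein of endothelial nitric oxide synthase, at 0.49 and Ccdc17 at 0.50 (median 0.81), with differences of -0.88 and -0.43. For Zbed3 they were Bcorl1, a transcriptional corepressor, at 0.30 and Pbrm1, a subunit of a chromatin remodeller, at 0.32 (median 0.57), with differences of 0.86 and 0.55.

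The neighbouring tested genes of the 6, up to 2 on either side, were 24 in all. None was called in the difference by edgeR, beside 7.55% of all tested genes. At an unadjusted p under 0.05 were 4 of the 24, beside 527 of all 2200 tested genes, and 1, Iqgap2 near Zbed3, was called by DESeq2. Fndc1, 435.3 kb from Rps6ka2, gave a difference of -2.63 ± 0.93 (adjusted p = 0.084), of the same sign as that of Rps6ka2 and near it in size. Unlike Rps6ka2 it fell with anti-CD40 in both settings, by 4.22 with ABX and by 1.59 without (adjusted p = 9.6e-06 and 0.0095), and it averaged 0.101 CPM in anti-CD40 ABX mice, 0.515 CPM in anti-CD40 mice without ABX, 2.16 CPM in control ABX mice and 1.6 CPM in control mice without ABX. Prr33 lay 25.9 kb from Mrpl23, whose difference was -0.27 ± 0.15 (adjusted p = 0.29). Slc16a12 lay 27.7 kb from the interferon-responsive gene Ifit1bl2, which rose with anti-CD40 by 5.59 ± 0.60 with ABX (adjusted p = 2.5e-08) and by 4.31 ± 0.43 without (adjusted p = 7.1e-09), the opposite sign to Slc16a12 without ABX. On its other side, at 59.7 kb, Pank1, encoding a pantothenate kinase, fell by 1.41 with ABX and by 1.54 without (adjusted p = 3.7e-11 and 6.4e-12), with a difference of 0.13 ± 0.15 (adjusted p = 0.64). Atl1 lay 224.4 kb from Pygl, liver glycogen phosphorylase, which fell by 2.06 with ABX and by 2.1 without, with a difference of 0.04 ± 0.15 (adjusted p = 0.90).

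The RefSeq promoter windows of the 6 genes (GRCm38.p6, 250 bases before to 50 after the start) matched for all 6, with 8 windows, and no motif searched, on both strands, was held by all 6. Of 32851 windows of the same length, NF-kB (GGG, any 2 bases, TTTCC) occurred in 1.63%, ISRE (TTTC, any 2 bases, TTTC) in 3.44%, GAS (TTCNNNGAA) in 8.3%, AP-1 (TGANTCA) in 7.81%, the E-box CACGTG in 7.15%, TATAAA in 13.6%, CCAAT in 37.4% and the GC box GGGCGG in 35.7%. Rps6ka2 held CCAAT 3 times and the GC box 2 times, Kcna2 and Atl1 held only the GC box, Slc16a12 only the E-box, and Prr33 none of them. For Zbed3 the first of its 3 windows held none, the second held ISRE and TATAAA, and the third CCAAT. The windows of Rps6ka2 and of the second Zbed3 start are shown, the first for its 5 matches and the second as the only one with ISRE. Matches on either strand are in capitals.
Rps6ka2, chr17:7169865-7170164, + strand: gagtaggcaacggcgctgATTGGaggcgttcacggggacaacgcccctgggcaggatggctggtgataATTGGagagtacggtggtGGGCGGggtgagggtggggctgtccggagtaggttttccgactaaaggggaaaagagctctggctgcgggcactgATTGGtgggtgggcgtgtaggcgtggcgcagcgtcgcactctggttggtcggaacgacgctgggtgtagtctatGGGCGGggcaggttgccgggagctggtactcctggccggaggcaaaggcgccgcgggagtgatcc
Zbed3, chr13:95324575-95324874, + strand: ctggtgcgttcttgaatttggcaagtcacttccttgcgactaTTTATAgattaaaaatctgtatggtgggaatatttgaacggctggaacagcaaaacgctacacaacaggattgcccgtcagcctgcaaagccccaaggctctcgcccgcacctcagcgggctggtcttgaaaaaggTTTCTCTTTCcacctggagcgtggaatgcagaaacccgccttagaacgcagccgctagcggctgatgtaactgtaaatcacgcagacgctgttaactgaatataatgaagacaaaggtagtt
A match is a stretch of letters and not a bound site, and the windows bear on no measurement made here.

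Where the libraries sat on a plate, as their well labels give it, followed the groups almost fully. Column 3 held the 5 control ABX mice and 3 control mice without ABX, column 4 held the 5 anti-CD40 ABX mice, anti-CD40 mouse 16 without ABX and 2 control mice without ABX, and column 5 held the other 4 anti-CD40 mice without ABX. No column held all 4 groups, so no difference of effects could be formed within a column. The contrasts below are not all that the columns allow, and they describe values on which the genes were chosen. In column 4 mouse 16 was the only anti-CD40 mouse without ABX. Within column 4 Rps6ka2 was at 1.29 ± 0.58 CPM in anti-CD40 ABX mice (SD, n = 5) and 5.44 CPM in mouse 16 without ABX. Slc16a12 was there at 15.4 ± 2.65 CPM in anti-CD40 ABX mice and 6.1 CPM in mouse 16, and Zbed3 at 5.4 ± 0.86 CPM in anti-CD40 ABX mice and 3.46 CPM in mouse 16. For the same contrast Kcna2 was at 21.3 and 14.4 CPM, Prr33 at 2.22 and 4.29 CPM and Atl1 at 1.11 and 1.81 CPM. Within the same column Prr33 was at 4.29 CPM in anti-CD40 mouse 16 against 0 and 0.148 CPM in the 2 control mice without ABX, and Atl1 at 1.81 CPM in mouse 16 against 0.148 and 0.674 CPM in those controls. Within column 3 Kcna2 was at 6.6 ± 0.67 CPM in control ABX mice (n = 5) and 14.7 ± 7.15 CPM in control mice without ABX (n = 3).

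With the plate column as a term in the fit all 6 differences kept their sign and none was called by edgeR, as was the case for all 2200 genes, of which 282 had an unadjusted p under 0.05. The values were -2.64 ± 0.84 for Rps6ka2, 1.72 ± 0.48 for Kcna2, 1.72 ± 0.43 for Slc16a12, -3.14 ± 0.89 for Prr33, -1.95 ± 0.85 for Atl1 and 1.06 ± 0.48 for Zbed3. Within the 2 antibiotic settings the calls for anti-CD40 were lost for Rps6ka2, Prr33 and Zbed3 with ABX and for Rps6ka2 and Atl1 without, and kept for Kcna2 with ABX and for Slc16a12 and Prr33 without. The calls for ABX were lost for Rps6ka2, Slc16a12 and Zbed3 in anti-CD40 mice and for Prr33 in control mice, and kept for Kcna2 in control mice. The standard errors of the 6 differences were larger than without the term, since columns and groups hardly cross. Only the groups without ABX spanned columns, so these libraries tell column and group apart only in part.

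**Figure D5:**
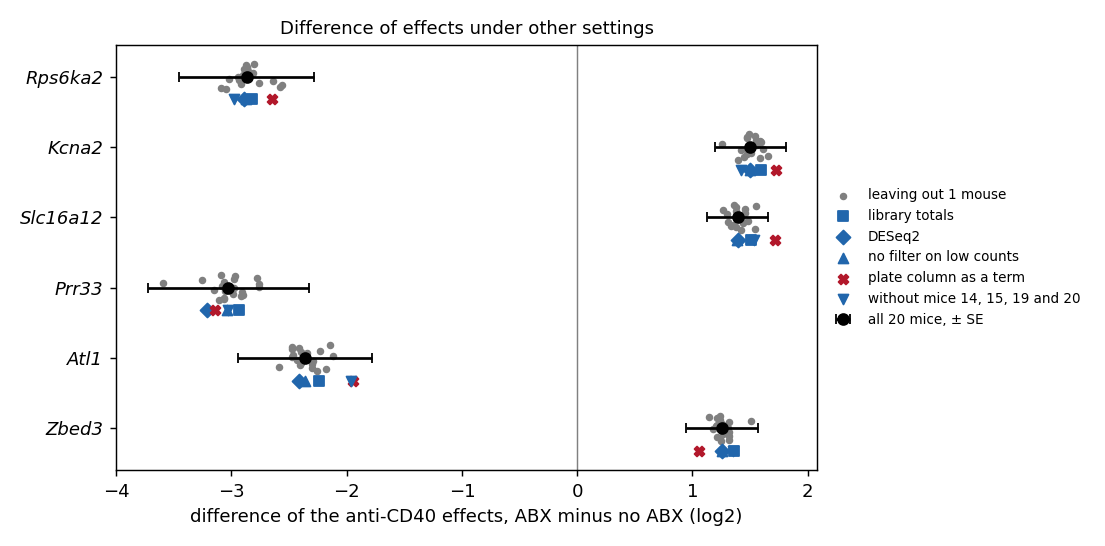
Difference of the anti-CD40 effects, with minus without ABX, in log2 units (horizontal axis) for the 6 genes. Black points with bars are the fit to all 20 mice ± SE, grey points the 20 fits with 1 mouse left out, and coloured symbols the other settings in the legend. All symbols of a gene lie on the same side of 0, and the plate column symbol lies at -1.95 for Atl1 and 1.06 for Zbed3.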

How the data were processed

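The authors deposited 1 table of counts per library, with reads trimmed by Trimmomatic 0.38, aligned with HISAT2 2.1.0 and counted with featureCounts 1.5.0-p2 in paired mode without a strand option, per the submitters' processing notes and the file headers. Per the file headers the counted features are human genes (Ensembl release 93), while the notes name mm10. Row names were therefore ignored, and the 58395 features were assigned by position with bedtools 2.31.1 to the GENCODE M21 gene whose exons they overlapped by at least 50 bp, where that was 1 gene only. Such features held 46.35% of counts, so most genes were measured over a fraction of their exons, and unstranded counts include any antisense reads. Counts were summed per gene and tested with edgeR 4.0.16 (R 4.3.3) in 1 model of 4 group means, with TMM scaling, filterByExpr and robust quasi-likelihood F-tests, two-sided, and Benjamini-Hochberg adjustment over 2200 genes. SEs are the size of the log2 change over the root of F. They rest on an estimate of the spread shared by the 4 groups, not on the spread of the groups compared. CPM values are TMM-scaled. The step was tested on simulated data in which every gene had the common coefficient of variation of 16.7% and the plate had no effect. That test does not cover genes with a wider spread or the plate column.

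The 6 genes and all lists were chosen with earlier results of these data known. Named besides them are the 2 tested genes most like each (at least 1 CPM on average), up to 4 members of each pathway list by smallest p in the difference, up to 3 of a marker list, Alb and neighbouring genes. Frat1, Per1, Rps6ka1, Atl2, Tcf7l2, Grb2 and Pecam1 were named after their values were seen. Alternatives were scaling to library totals, DESeq2 1.42.0, no filter, assignment from 1 or 100 bp, the plate column, single intervals, leaving out each mouse and leaving out 4 mice. Depth was 5053014 to 7618736 counts per library. Counting intervals are exact at 95%. Mice are separate animals, and each group's numbers are its own. One gene of a pathway list and 2 of the counted stretches are not reported here.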

Additional observations from a re-analysis of the deposited data

Results flagged for a closer look

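In 2 of 24 combinations of gene and group, 1 mouse stood apart from the other 4 by a gap larger than 0.71 of the group's range (Dixon's test at 95%, which flags about 1 group in 20 by chance). Control ABX mouse 1 had 4.17 CPM of Rps6ka2, against 3.32 to 3.54 CPM in the others. Control mouse 8 without ABX had 23 CPM of Kcna2, against 10.3 to 13.8 CPM in the others, and it was also the highest of its group in Marco, at 93.1 CPM, and Col3a1, at 209 CPM.

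The effect of anti-CD40 differed between mice with and without ABX for the 6 genes, which were chosen for it: -2.87 for Rps6ka2, 1.5 for Kcna2, 1.39 for Slc16a12, -3.03 for Prr33, -2.36 for Atl1 and 1.26 for Zbed3 (log2, with minus without ABX). Among the 12 genes chosen for their likeness to them on the same libraries, those past the threshold gave -1.75 for Htra1, 0.50 for Plec, 0.99 for Shroom2, 0.77 for Ptprd, -0.81 for Nfkbia, -0.88 for Nostrin, 0.86 for Bcorl1 and 0.55 for Pbrm1. The remaining 4 gave -0.95 for Ifi207, 0.78 for Esr1, -0.37 for Il2rb and -0.43 for Ccdc17. With 1 mouse left out the call was lost in 15 of 20 fits for Htra1, in 12 for Nfkbia, in 3 for Plec and in 1 for Bcorl1. Among genes of their pathways it was -1.61 for Dusp5, 0.46 for Atl3 and 0.57 for Spast.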

How the results depend on the processing

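No paired analysis was possible because the 4 groups share no mouse numbers. With 1 mouse left out, genes called ranged from 1047 to 1154 for anti-CD40 with ABX, from 1262 to 1349 for anti-CD40 without ABX, from 88 to 194 for the difference of effects, from 225 to 380 for ABX in anti-CD40 mice and from 89 to 157 for ABX in control mice, against 1133, 1333, 166, 350 and 147 with all mice. The plate column as a term gave 690, 735, 0, 5 and 77, and leaving out mice 14, 15, 19 and 20 gave 79 for the difference and 170 for ABX in anti-CD40 mice. Scaling to library totals moved the median log2 change with anti-CD40 to 0.37 with ABX and 0.27 without ABX, from 0.02 and 0.03 over all genes. The genes called higher with anti-CD40 moved to 1035 of 1347 and 932 of 1337, from 585 of 1133 and 700 of 1333. Those called higher with ABX in control mice moved to 35 of 174, from 76 of 147. For the difference, scaling to library totals gave 110 higher of 137, against 96 of 166. DESeq2 called 201 genes in the difference and no filter 122.

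The 6 genes were chosen for a large difference of effects in these libraries, so that no setting run turned its sign is no evidence of stability. Under library totals the change with anti-CD40 in ABX mice turned to 0.063 for Slc16a12 and 0.025 for Atl1, and with the plate column to 0.186 for Atl1. Of the genes named and not called, Grb2, Ckb, Alb, Rps6ka1, Marco, Tcf7l2 and Sos2 had a difference whose sign depended on the setting. With 1 mouse left out it ran from -0.051 to 0.029 for Grb2, from -0.423 to 0.124 for Ckb, from -0.039 to 0.149 for Alb, from -0.057 to 0.234 for Rps6ka1 and from -0.479 (without mouse 8) to 1.116 for Marco. Under library totals it was 0.081 for Grb2 and 0.004 for Tcf7l2, with the plate column 0.042 for Sos2, 0.293 for Ckb and -0.2 for Alb, and without the 4 mice -0.142 for Rps6ka1. The cause of these moves was not tested. Zbed3 has 96 counted bp and could not be measured at 100 bp. Prr33 and Atl1 had at most 32 and 20 counts in any mouse.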
